A study of Mus musculus with 9 samples.

Results

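Cd5, Cd6, Cd69, Themis, Ptpn6 and Ubash3a set or report the strength of T cell receptor (TCR) signals. These 6 genes were chosen by name, and each matched 1 of the 31053 genes in each of the 3 single-cell RNA libraries. The study compared thymocytes of wild-type (WT) mice with thymocytes of CD3ε I173A mice, which carry an amino acid substitution in a signalling chain of the TCR complex. The thymocytes came from adult females. Cells of the genotypes were marked with hashtags, which are oligonucleotide-tagged antibodies, and sorted into CD4 single-positive (CD4+CD8-), CD8 single-positive (CD4-CD8+) and double-positive (DP, CD4+CD8+) gates. Each gate was then run as 1 library that mixed the genotypes. Hashtag 4 was read as WT and hashtag 6 as I173A, from the order in which the labels name them. No treatment is named, all cells shared the same stains, and how many mice stood behind each genotype is not stated. Each genotype was therefore 1 sample per gate, so no test was run. The intervals in brackets are 95% and cover counting error only. Higher and lower are used of these samples only.

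A thymocyte survives only when its TCR binds self peptide on MHC within a window of strength, and the molecules studied here adjust that window. CD5 is a scaffold receptor that dampens TCR signals and whose surface level is set by the strength of self-recognition, and CD6 is its relative, a binder of the adhesion molecule ALCAM. CD69 appears on cells that have just been signalled through the TCR and holds them in the thymus by pulling the exit receptor S1PR1 from the surface. THEMIS is an adaptor needed for positive selection that acts together with SHP-1, the tyrosine phosphatase encoded by Ptpn6. UBASH3A (STS-2) is a suppressor of TCR signalling.

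After filtering, the groups held 3109 WT and 2664 I173A cells in the CD4 gate, 3017 WT and 2872 I173A cells in the CD8 gate and 2516 WT and 2706 I173A cells in the DP gate. Median counts per cell ran from 2750.5 to 6079 unique molecular identifiers (UMIs), with the lowest medians in DP. Marker genes differed by gate, with Zbtb7b of the CD4 lineage at 108 CPM (UMIs per 1000000 of the group) in WT cells of the CD4 gate and 0.133 CPM in those of the CD8 gate, and Rag1 at 1049 CPM in WT DP cells. The summed level of 6 T cell markers was 4473 to 7936 CPM over the 6 groups. Cycling cells, those with at least 30 UMIs of cell cycle genes per 10000, were 19.3% of WT and 10.8% of I173A cells in the CD8 gate and 18.0% and 7.02% in the DP gate, against 2.93% and 2.14% in the CD4 gate. They carried 40.2% of all WT UMIs in the CD8 gate and 41.9% in the DP gate. The genotype ratios of the 6 members are therefore given over all cells and over noncycling cells. Between 1.84% and 18.4% of the cells of a group lay near this threshold, at 15 to 60 cycle UMIs per 10000. In the CD8 gate Ptcra, which encodes the pre-TCR α chain of immature thymocytes, was at 32.8 CPM in WT and 6.12 CPM in I173A cells, and Rag1 at 26.7 and 7.49 CPM, and their part in ratios over all cells of that gate was not tested. From 109 to 124 barcodes were shared by each pair of libraries.

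Over all cells of the sorted gates Themis was highest in DP cells, Cd5, Cd6, Cd69 and Ubash3a in the CD4 gate, and Ptpn6 in both single-positive gates. It stood at 934 CPM in WT and 983 CPM in I173A DP cells, against 141 and 137 CPM in the CD4 gate and 139.9 and 134 CPM in the CD8 gate. In WT cells the CD4 gate had 0.151 (0.145 to 0.157) times and the CD8 gate 0.150 (0.144 to 0.156) times the DP level. The 4 single-positive groups followed each other with overlapping intervals.

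Cd5 was highest in the CD4 gate, at 548 CPM in WT and 606 CPM in I173A cells. It reached 172 and 228 CPM in the CD8 gate and 182 and 290.4 CPM in the DP gate. The WT groups of the CD8 and DP gates had overlapping intervals, and the other neighbours in the order of levels did not. In WT cells the CD4 level was 3.19 (3.07 to 3.31) times the CD8 level and 3.01 (2.87 to 3.17) times the DP level. Without cycling cells these steps were 2.45 (2.35 to 2.55) and 2.32 (2.19 to 2.45). Cd6 kept the same gate on top with smaller steps, from 132 CPM in WT CD8 cells through 184 CPM in I173A CD8, 192 CPM in WT DP, 233 CPM in I173A DP and 259 CPM in WT CD4 to 289 CPM in I173A CD4 cells. Only the I173A CD8 and WT DP groups overlapped in that order. The genes lie close together on chromosome 19 (Cd5 at 10718107 to 10739026 and Cd6 at 10789339 to 10830062, GRCm38.p6), 50.3 kb apart with 1 annotated gene, A430093F15Rik, between them.

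Cd69 was ordered from the CD4 gate (164 CPM in WT, 157 CPM in I173A) to the CD8 gate (118 and 113 CPM) and the DP gate (51.7 and 64.7 CPM). Within the CD4 and CD8 gates the genotypes overlapped, and in the DP gate they did not. Without cycling cells WT had 171 CPM in the CD4 gate and 166 CPM in the CD8 gate, and their ratio went from 1.39 (1.32 to 1.46) over all cells to 1.03 (0.975 to 1.09), so the step between these gates was within counting error. In I173A cells it was 1.32 (1.24 to 1.40) without cycling cells. Ptpn6 was also lowest in DP cells, at 157 and 154 CPM, and stood at 244 to 269 CPM in the 4 single-positive groups. Ubash3a was highest in the CD4 gate, at 98.4 and 106 CPM, and lay between 59.3 and 66.6 CPM in the other 4 groups. Neighbours in the order overlapped among those 4 groups and between the CD4 groups.

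Read against a fold of 2 over all WT cells, Cd5 and Cd69 were higher in the CD4 than in the DP gate, where 8.59% of genes were. Themis alone of the 6 was lower there, where 15.4% of genes were. Between the CD8 and DP gates Cd69 was past the fold upward and Themis downward, against 6.88% and 19.1% of genes. Between the CD4 and CD8 gates Cd5 was past it, against 4.88% of genes, and no member was lower by that fold, against 6.03%. In I173A cells Cd5 and Cd69 were again past the fold in CD4 over DP, against 7.95% of genes, and Themis lower, against 14.2%. Cd69 in CD8 over DP was 1.74 (1.58 to 1.92), so no member was past it upward there, against 7.62%, and Themis was downward, against 21.1%. Cd5 was past it in CD4 over CD8, against 4.13%, and none was lower, against 4.16%. Each gate was 1 library, so gate and library cannot be told apart. The median gene was itself shifted by -0.26 (log2) in CD4 against DP, by -0.42 in CD8 against DP and by 0.17 in CD4 against CD8. Scaled by that median, the WT CD8 to DP ratio of Cd5 turned from 0.945 to 1.27 and that of Ubash3a from 0.974 to 1.31. The WT CD4 to CD8 ratio of Themis turned from 1.01 to 0.893 and that of Ptpn6 from 1.11 to 0.981. The Themis step from DP stayed at 0.181 for CD4 and 0.201 for CD8.

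**Figure D1:**
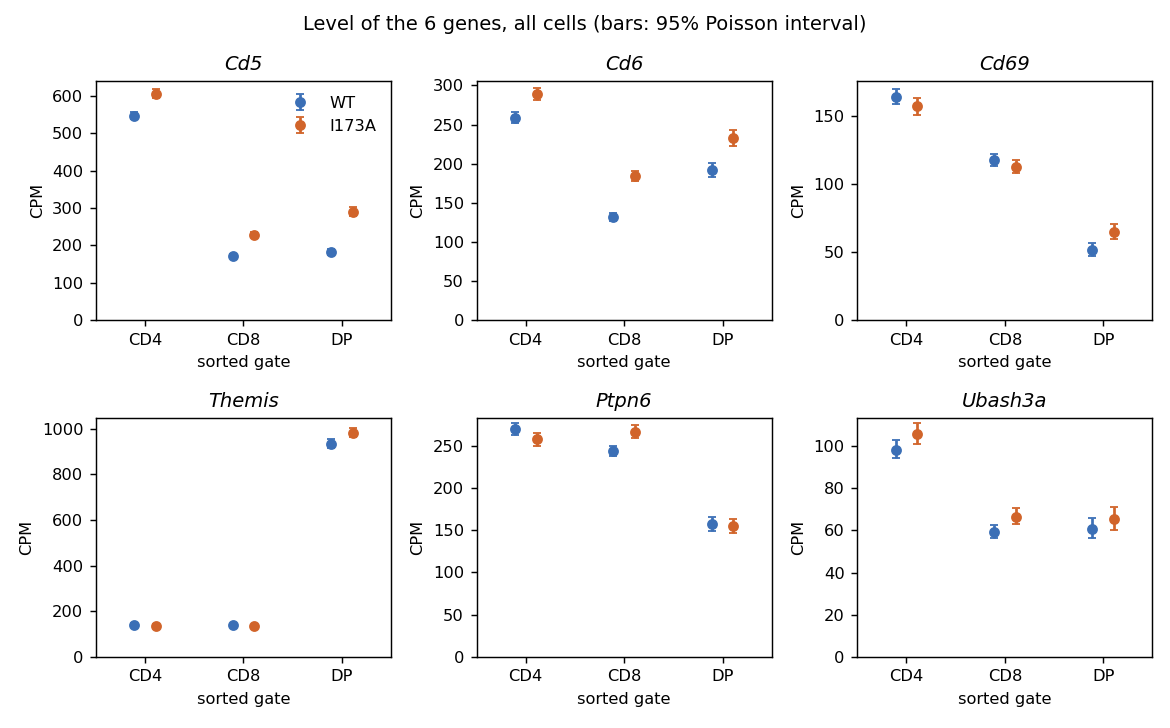
Level of each gene (CPM, linear axis from 0) in WT (blue) and I173A (orange) cells of the CD4, CD8 and DP gates. Points are all cells of 1 sample and bars the 95% Poisson interval of the count. Themis stands at 934 and 983 CPM in DP cells and at 134 to 141 CPM elsewhere, while Cd5 is highest in the CD4 gate.

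The promoters of Cd5 and Themis, shown because the first gene was highest in the CD4 gate and the second in the DP gate, are given below as the 250 bases upstream of a RefSeq transcript start (GRCm38.p6), 5′ to 3′ on the gene's strand. Capitals mark E-box letters, the CANNTG core read by E proteins, the basic helix-loop-helix factors of thymocytes. The Cd5 window is chr19:10738975-10739224 on the minus strand and the Themis window is chr10:28668110-28668359 on the plus strand.
Cd5: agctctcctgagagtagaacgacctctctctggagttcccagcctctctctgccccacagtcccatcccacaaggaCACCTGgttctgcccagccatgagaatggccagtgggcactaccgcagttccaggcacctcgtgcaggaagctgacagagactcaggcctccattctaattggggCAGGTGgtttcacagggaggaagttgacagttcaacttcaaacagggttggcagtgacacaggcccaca
Themis: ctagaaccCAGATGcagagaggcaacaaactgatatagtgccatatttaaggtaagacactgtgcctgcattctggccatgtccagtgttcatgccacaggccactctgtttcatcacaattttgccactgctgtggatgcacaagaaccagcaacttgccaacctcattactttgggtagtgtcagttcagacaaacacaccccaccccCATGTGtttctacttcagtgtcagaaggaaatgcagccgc
Themis has a second annotated start further downstream, whose window held 1 match and is not printed. Each printed window held 2 matches of CANNTG, which reads alike on both strands, as did the Ubash3a window. The Ptpn6 window held 1. Of all 32851 upstream windows of this length in the table, 66.2% held at least 1 match. The ETS letters GGAAGT occurred at 1 place, with both strands searched, in the Cd5 window, at 2 places in the Ptpn6 window and not in the windows of Themis and Ubash3a, against 19.7% of all windows with a match. The EGR letters GCGNGGGCG, held by 4.70% of all windows, and the RUNX letters TGTGGT, held by 14.0%, occurred in none of these 4 genes' windows. A match is a description of letters and not evidence of binding. Promoters were matched by symbol for 4 of the 6 genes, all but Cd6 and Cd69.

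Between the genotypes, Cd5 and Cd6 were higher in I173A cells in every gate over all cells. Both passed the fold used here in the CD8 gate, Cd5 alone of them in the DP gate and neither in the CD4 gate. Of the other 4 genes only Cd69 in DP cells passed it over all cells. The fold was a ratio of 0.8 or less, or its reciprocal or more. In the CD4 gate Cd5 was at 548 CPM (537 to 558) in WT and 606 CPM (594 to 618) in I173A cells, a ratio of 1.11 (1.08 to 1.14). Cd6 was at 259 CPM (252 to 266) in WT and 289 CPM (281 to 297) in I173A cells, a ratio of 1.12 (1.07 to 1.16), and Ubash3a had a ratio of 1.07 (1.01 to 1.15). Ptpn6 had 0.957 (0.919 to 0.996), and the intervals of Cd69 at 0.958 (0.910 to 1.01) and Themis at 0.969 (0.917 to 1.02) held 1. None of the 6 passed that fold in either direction in this gate, in which 5% of genes were higher and 2.08% lower by it. At a fold of 1.1 Cd5 and Cd6 passed, against 23.7% of genes higher and 10.7% lower.

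In the CD8 gate Cd5 and Cd6 passed the fold, against 10.6% of genes higher and 10.9% lower. Cd6 was at 132 CPM (127 to 137) in WT and 184 CPM (178 to 190.3) in I173A cells, a ratio of 1.40 (1.33 to 1.47). Cd5 was at 172 CPM (166 to 177) in WT and 228 CPM (221 to 235) in I173A cells, a ratio of 1.33 (1.27 to 1.39). Among noncycling cells these ratios were 1.20 (1.13 to 1.27) for Cd6 and 1.102 (1.05 to 1.16) for Cd5, and neither passed. Cd69, at 166 CPM in WT and 124 CPM in I173A cells without cycling cells, then had a ratio of 0.7504 (0.704 to 0.799) and was the 1 member past the fold, on the lower side, where 2.22% of genes were. On the higher side were 4.33% of genes and no member. Ptpn6 went from 1.09 (1.05 to 1.14) over all cells to 0.984 (0.941 to 1.03) over noncycling cells, and Themis, from 0.960 (0.910 to 1.01) to 0.949 (0.890 to 1.01), and Ubash3a, from 1.12 (1.04 to 1.22) to 1.01 (0.924 to 1.11), had intervals that held 1 in noncycling cells.

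Cycling cells of the CD8 gate differed from the noncycling ones. There Cd5 was at 91.2 CPM in WT and 155 CPM in I173A cells, a ratio of 1.70 (1.53 to 1.89). Cd6 had a ratio of 1.54 (1.37 to 1.74) and Cd69, at 46.3 CPM in WT and 70.7 CPM in I173A cells, a ratio of 1.53 (1.31 to 1.78), with 582 WT and 309 I173A cells. Thus Cd69 lay on opposite sides of 1 in cycling and noncycling CD8-gate cells. All of these cycling-cell levels were below those of the noncycling cells of the same genotype. S1pr1, the gene of the exit receptor, was at 36.5 CPM in WT and 68.7 CPM in I173A cells among these cycling cells. The part of immature cells in the ratios of cycling cells was not tested.

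In the DP gate Cd5 had the highest ratio of the 6 genes in any gate over all cells. It was at 182 CPM (173.4 to 190.1) in WT and 290.4 CPM (279 to 302) in I173A cells, a ratio of 1.599 (1.51 to 1.70), and at 238 CPM in WT and 326 CPM in I173A cells among noncycling cells, a ratio of 1.37 (1.28 to 1.46). Cd69 was the other member past the fold over all cells, at 1.251 (1.11 to 1.41), against 16.2% of genes higher and 10.5% lower. At a fold of 1.5 only Cd5 passed in this gate, against 3.75% of genes higher and 5.46% lower. None of the 6 passed it in the CD8 gate, against 1.39% and 4.83%. Without cycling cells Cd69 was at 77.7 CPM in WT and 75.3 CPM in I173A cells and its ratio was 0.968 (0.854 to 1.099). The mean of each cell's own CPM, which gives every cell the same weight, put it at 0.903. Scaling by TMM, a trimmed mean over all genes, put it at 1.19, under the fold.

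Themis also changed sides of 1 in the DP gate, the gate in which it is high. Over all cells it had a ratio of 1.05 (1.02 to 1.08), and of 0.999 with TMM scaling. Noncycling cells held 1209.9 CPM in WT and 1074 CPM in I173A cells, a ratio of 0.888 (0.860 to 0.917), and cycling cells 552 CPM in WT and 515 CPM in I173A cells, a ratio of 0.932 (0.857 to 1.01). Both kinds of cell thus had a ratio below 1, while WT had the larger share of cycling cells, whose Themis level was lower. Cd6 had a ratio of 1.21 (1.14 to 1.29) over all DP cells and 1.06 (0.989 to 1.14) over noncycling ones. Ptpn6 had 0.983 (0.914 to 1.06) and 0.916 (0.842 to 0.997), and Ubash3a 1.07 (0.956 to 1.21) and 0.925 (0.813 to 1.05). Cd5 alone of the 6 passed the fold among noncycling DP cells, where 7.25% of genes were higher and 3.38% lower. In noncycling cells of the CD4 gate the ratios were 1.11 (1.08 to 1.14) for Cd5, 1.12 (1.07 to 1.16) for Cd6, 0.959 (0.910 to 1.01) for Cd69, 0.974 (0.921 to 1.03) for Themis, 0.943 (0.905 to 0.982) for Ptpn6 and 1.08 (1.01 to 1.15) for Ubash3a. No member passed there, against 5.31% and 1.97% of genes.

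**Figure D2:**
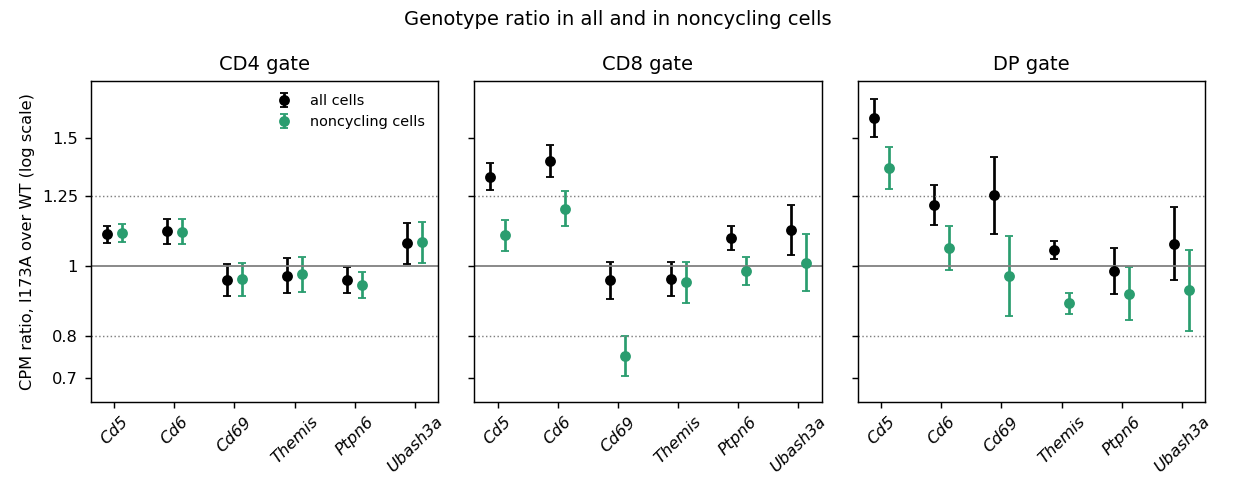
CPM ratio of I173A to WT cells (log axis) for the 6 genes in the CD4, CD8 and DP gates, in all cells (black) and noncycling cells (green), with 95% counting intervals. The solid line marks 1 and the dotted lines the fold of 0.8 and its reciprocal. Cd69 in the CD8 gate drops to 0.7504 without cycling cells, and Cd5 in the DP gate stays highest.

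DP thymocytes were next divided by whether a productive TCR α (TRA) contig was found for them, since the α chain is rearranged at the DP stage and only cells with an α chain can carry a complete αβ TCR. Among noncycling DP cells, 651 WT and 931 I173A cells had such a contig and 1413 WT and 1585 I173A cells had none. Cd5 was at 432 CPM (404 to 461) in WT and 604 CPM (576 to 633) in I173A cells with a contig, a ratio of 1.40 (1.29 to 1.52). Without a contig it was at 133 CPM (122 to 145) in WT and 135 CPM (124 to 146) in I173A cells, a ratio of 1.01 (0.899 to 1.15). Thus the higher Cd5 of I173A DP cells was seen in those with a contig, and in those without one the levels were within counting error. The difference between the ratios was not tested.

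Cells with a contig had 3.25 (2.91 to 3.63) times the Cd5 level of those without one in WT and 4.48 (4.07 to 4.93) times in I173A. For Cd69 the steps were 2.49 (2.06 to 3.01) in WT and 3.73 (3.09 to 4.53) in I173A, from 51.0 CPM in WT and 35.6 CPM in I173A cells without a contig to 127 CPM in WT and 133 CPM in I173A cells with one. Cd69 without a contig thus had a genotype ratio of 0.699 (0.562 to 0.869), and with a contig 1.05 (0.895 to 1.23). Cd6 steps were 1.73 (1.56 to 1.92) and 1.95 (1.78 to 2.15), and Ptpn6 steps 1.47 (1.30 to 1.66) and 1.37 (1.22 to 1.54). Themis went the other way, to 0.815 (0.774 to 0.857) times in WT and 0.814 (0.777 to 0.853) times in I173A, and its genotype ratio was 0.897 (0.848 to 0.949) with a contig and 0.898 (0.863 to 0.934) without. Ubash3a did not differ by contig beyond counting error in either genotype. Contigs rested on a median of 4 UMIs in the DP library, and a cell that lacked the chain cannot be told apart from one in which it was not captured.

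The same cells were divided by their UMIs of Nr4a1, Nr4a3, Egr1, Egr2 and Egr3, transcription factor genes that are induced within a short time of TCR signalling. In the DP gate 1837 WT and 2218 I173A cells had no such UMI and 117 WT and 183 I173A cells had 2 or more. Cd5 in WT cells was at 151 CPM with none, 399 CPM with 1 and 1168 CPM with 2 or more. I173A cells had 199, 651 and 1375 CPM. The ratio between genotypes was 1.31 (1.20 to 1.44), 1.63 (1.32 to 2.02) and 1.18 (1.05 to 1.32) in turn, above 1 in all 3 ranges.

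Between cells with 2 or more and cells with no signal UMI, WT DP cells differed 13.9 (11.5 to 16.9)-fold in Cd69, 7.73 (6.89 to 8.67)-fold in Cd5, 3.96 (3.47 to 4.49)-fold in Cd6 and 2.49 (2.09 to 2.95)-fold in Ptpn6. Themis was lower in the signalled cells, at 795 against 1251 CPM, a ratio of 0.636 (0.568 to 0.710), and Ubash3a was at 0.759 (0.485 to 1.14). In I173A DP cells the same steps were 19.97 (16.5 to 24.2) for Cd69, 6.92 (6.34 to 7.55) for Cd5, 3.33 (2.97 to 3.71) for Cd6, 1.87 (1.58 to 2.20) for Ptpn6 and 0.656 (0.596 to 0.721) for Themis. Ptpn6 in DP cells with 2 or more signal UMIs was at 389 CPM (332 to 454) in WT and 272 CPM (233 to 316) in I173A cells, a ratio of 0.699 (0.561 to 0.871), from 163 and 174 UMIs. Its share of such cells with a UMI went the opposite way, 23.5% in WT and 28.3% in I173A after each cell was thinned to 1000 UMIs. A cell with more UMIs has more chances of a signal UMI, and the median depth was 3337 and 3297 UMIs with 2 or more against 2642 and 2669.5 with none.

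**Figure D3:**
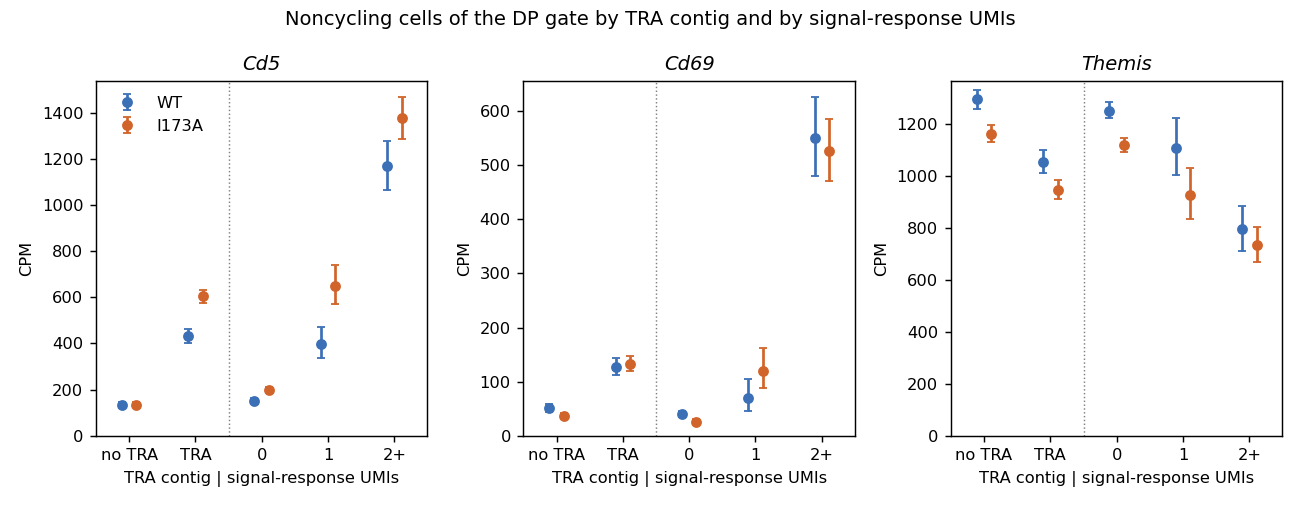
Cd5, Cd69 and Themis (CPM, linear axis from 0) in noncycling DP cells of WT (blue) and I173A (orange), left of the dotted line by presence of a TRA contig and right of it by UMIs of the 5 signal-response genes. Bars are 95% Poisson intervals. Cd5 differs between genotypes with a contig (432 and 604 CPM) and not without (133 and 135 CPM), and within a genotype Themis is lower in the ranges where Cd5 is higher.

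For Cd69 the ranges with no signal UMI set the genotypes apart in all 3 gates. Such cells had 127 CPM (120.1 to 134) in WT and 76.8 CPM (71.5 to 82.3) in I173A cells in the CD8 gate, a ratio of 0.605 (0.553 to 0.661). In the CD4 gate they had 72.3 CPM (67.7 to 77.2) in WT and 50.5 CPM (46.2 to 55.1) in I173A cells, a ratio of 0.698 (0.625 to 0.779). In the DP gate they had 39.5 CPM (34.3 to 45.4) in WT and 26.3 CPM (22.4 to 30.7) in I173A cells, a ratio of 0.666 (0.538 to 0.822). With 2 or more signal UMIs the levels were 457 and 442 CPM in the CD4 gate, 359.9 and 344 CPM in the CD8 gate and 549 and 526 CPM in the DP gate. The ratios there were 0.965 (0.907 to 1.03), 0.956 (0.864 to 1.06) and 0.957 (0.807 to 1.14), so Cd69 was lower in I173A cells without signal UMIs and within counting error of WT in cells with 2 or more. With exactly 1 signal UMI the ratios were not on one side, at 0.945 (0.770 to 1.16) in the CD4 gate, 0.705 (0.559 to 0.886) in the CD8 gate and, in the DP gate, 1.71 (1.02 to 2.90), from 25 and 45 UMIs. How the ratios differed between ranges was not tested.

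Early-response and heat-shock genes mark stress and handling of cells as well as signalling. Summed together, they had lower levels in I173A cells too. Of a list of 20 such genes, noncycling cells had 10 of 16 measured genes below a ratio of 1 and 3 past the fold in the CD4 gate (summed level 6236 CPM in WT and 5286 CPM in I173A). The CD8 gate had 13 of 16 below 1 and 3 past the fold (6639 and 5645 CPM), and the DP gate 16 of 17 and 5 (5447 and 4798 CPM). Of all genes, 37.9%, 41.8% and 45.8% were below 1 in the CD4, CD8 and DP gates, and 1.97%, 2.22% and 3.38% past the fold on the lower side. None of the measured genes was past the fold on the higher side. Jun, an early-response gene, was at 43.7 and 16.0 CPM in WT and I173A cells of the CD4 gate, 41.2 and 14.5 CPM in the CD8 gate and 122 and 46.9 CPM in the DP gate. Other early-response genes were not all lower. In the CD4 gate Fos, Ier2, Dusp1, Btg2 and Zfp36 had ratios of 1.04, 1.05, 1.15, 1.02 and 1.06. Junb and Jund had 0.866 and 0.909. In the CD8 gate Fos, Ier2 and Zfp36 had 1.17, 1.07 and 1.04. Junb, Jund, Dusp1 and Btg2 had 0.891, 0.877, 0.865 and 0.937. Fos in the DP gate had 0.319. The highest levels of the list in the CD4 gate were Hsp90ab1 (1711 and 1455 CPM) and Hspa8 (1559 and 1133 CPM). An alternative chosen after the data were seen kept only noncycling cells without any Jun or Fos UMI. These were 2324 of 3018 WT and 2301 of 2607 I173A cells in the CD4 gate. They were 1928 of 2435 and 2340 of 2563 in the CD8 gate, and 1463 of 2064 and 2194 of 2516 in the DP gate. In these cells the Cd69 ratio was 0.924 (0.869 to 0.982), 0.705 (0.655 to 0.758) and 1.07 (0.904 to 1.26) in the CD4, CD8 and DP gates. Where those cells also had no signal UMI it was 0.683 (0.605 to 0.771), 0.579 (0.525 to 0.638) and 0.787 (0.611 to 1.02). Cd5 in noncycling cells without a Jun or Fos UMI had 1.04 (1.01 to 1.07), 1.097 (1.04 to 1.16) and 1.40 (1.29 to 1.52), and without a signal UMI as well 1.01 (0.967 to 1.05), 1.11 (1.04 to 1.19) and 1.32 (1.19 to 1.47), so in the CD4 gate its interval then held 1. The part of these genes in the Cd5 and Cd69 ratios was not tested.

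Single-positive cells were also ordered by a maturity score, the share of UMIs of genes of cells ready to leave the thymus, such as Klf2, S1pr1, Il7r, Ms4a4b, Ms4a6b and Slfn1, among these and those of Ccr9, Cd24a, Rag1, Rag2, Tox, Itm2a and Satb1, genes of newly selected cells. The score used none of the 6 members. From 15.5% to 17.9% of scored cells lay within 0.05 of a cut. In the CD4 gate, Cd5 went from 765 CPM in WT and 797 CPM in I173A cells at scores below 0.35, through 547 CPM in WT and 600.4 CPM in I173A cells at 0.35 to 0.65, to 402 CPM in WT and 439 CPM in I173A cells above 0.65. Cd6 went from 325 CPM in WT and 338 CPM in I173A cells at the low end to 208 CPM in WT and 237 CPM in I173A cells at the high end, and Themis from 192 CPM in WT and 188 CPM in I173A cells to 116 CPM in WT and 104 CPM in I173A cells. In WT cells the level at the high end was 0.525 (0.503 to 0.548) of that at the low end for Cd5, 0.639 (0.600 to 0.681) for Cd6, 0.606 (0.557 to 0.658) for Themis, 0.748 (0.703 to 0.795) for Ptpn6 and 0.795 (0.717 to 0.881) for Ubash3a. Thus every member was lower at the high end of the score in this gate.

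Cd69 had the steepest such step in the CD4 gate, 0.406 (0.376 to 0.439) in WT and 0.321 (0.291 to 0.353) in I173A cells. Low-scored cells had 284 CPM in WT and 272 CPM in I173A cells, a ratio of 0.958 (0.896 to 1.02), and high-scored cells 115 CPM in WT and 87.1 CPM in I173A cells, a ratio of 0.756 (0.680 to 0.840). In the CD8 gate WT cells had no such step, with 144, 182 and 162 CPM from low to high scores. I173A cells had 183, 158 and 109.9 CPM. High over low was 1.13 (0.947 to 1.36) in WT and 0.600 (0.514 to 0.704) in I173A. The share of thinned I173A cells with a Cd69 UMI had no such fall, at 8.76%, 10.3% and 9.88% from low to high scores. The genotype ratio was 1.28 (1.02 to 1.602) at low scores, from 135 and 190 UMIs, 0.871 (0.764 to 0.991) at middle scores and 0.678 (0.627 to 0.733) at high scores. At low scores the share of cells with a UMI went the opposite way to the CPM. It was 35.3% in WT and 24.7% in I173A, and 10.7% and 8.76% after thinning, with overlapping intervals. Without thinning, the low-scored cells with a UMI held a mean of 1.90 in WT and 3.45 in I173A. Among high-scored cells without a Jun or Fos UMI the genotype ratio was 0.753 (0.663 to 0.854) in the CD4 gate and 0.643 (0.588 to 0.702) in the CD8 gate.

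The ratios of Cd5 and Cd6 at high scores were 1.09 (1.04 to 1.15) and 1.14 (1.06 to 1.22) in the CD4 gate and 1.14 (1.07 to 1.21) and 1.21 (1.13 to 1.30) in the CD8 gate. Without cells with a Jun or Fos UMI these were 1.04 (0.980 to 1.095) and 1.09 (1.00 to 1.17) in the CD4 gate, where the Cd5 interval then held 1, and 1.16 (1.08 to 1.24) and 1.19 (1.104 to 1.28) in the CD8 gate. Cd6 had its highest genotype ratio among the maturity ranges at low scores of the CD8 gate, 187 CPM in WT and 249 CPM in I173A cells, a ratio of 1.33 (1.09 to 1.62). Ptpn6 in the CD4 gate was lower in I173A at middle scores, 296 CPM in WT and 251 CPM in I173A cells, a ratio of 0.851 (0.776 to 0.933), and at high scores, 0.917 (0.856 to 0.982). Its ratios in the CD8 gate were 0.993, 0.980 and 0.985 from low to high, and all 3 intervals held 1. Ubash3a intervals held 1 in all 6 combinations of gate and maturity range.

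**Figure D4:**
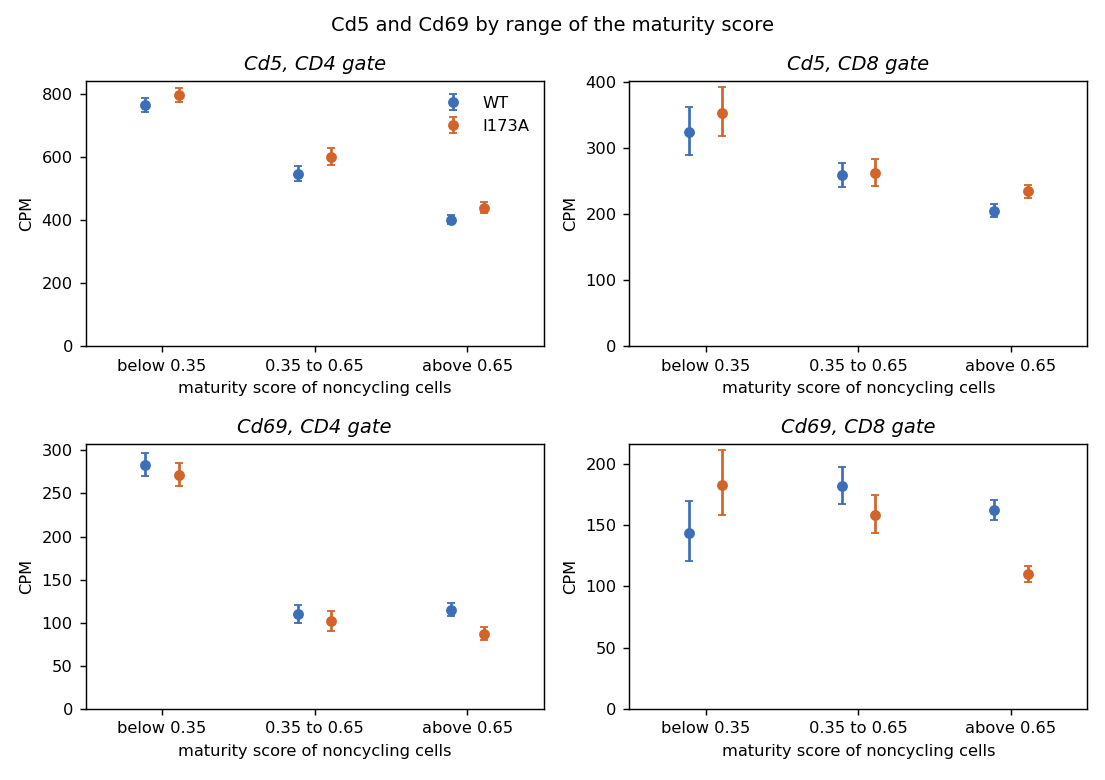
Cd5 (top) and Cd69 (bottom) in noncycling WT (blue) and I173A (orange) cells of the CD4 and CD8 gates by range of the maturity score (CPM, linear axis from 0, 95% Poisson intervals). Cd5 is lower at higher scores in both gates, and Cd69 above 0.65 is lower in I173A, 162 against 109.9 CPM in the CD8 gate.

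How many cells held a UMI of each gene was also counted, over all cells and after each cell was thinned to 1000 UMIs, which sets depth equal. Cd5 was detected in 72.8% of WT and 74.1% of I173A cells of the CD4 gate, and in 34.2% and 38.0% after thinning. For the CD8 gate the thinned shares were 17.3% and 19.3% (unthinned 52.7% and 57.9%), and in the DP gate 13.0% and 15.4% (unthinned 25.4% and 27.3%). Themis was found in 62.8% and 61.1% of thinned DP cells (unthinned 90.6% and 88.2%) and in 13.5% to 14.8% in the other groups. Cd69 in the CD8 gate was found in 11.8% and 9.63% (unthinned 41.1% and 33.3%), and in the DP gate in 4.76% and 4.70% (unthinned 10.7% and 10.3%). The DP shares of Cd69 were thus alike in the genotypes, unlike its CPM over all cells. From 9 to 78 cells of a group were left out of the thinning as shallower.

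Background from free RNA was read in 21 cells with no UMI of the CD3 genes and at least 5 UMIs of B cell or myeloid markers, with a median of 1564 UMIs. Cd5 and Ubash3a had a UMI in 0 of 21 (upper bound 16.1%), Cd6 and Themis in 1 (4.76%, 0.120 to 23.8%) and Cd69 in 3 (14.3%, 3.05 to 36.3%). Ptpn6, which blood cells of many kinds express, was found in 10 of the 21 (47.6%, 25.7 to 70.2%). These cells are too few and too shallow to set a background for the rarer genes. The Cd69 estimate there, 14.3% without thinning, was above the thinned share of each of the 6 groups. Its CPM there, 25.5 from 3 UMIs, was below the 51.7 to 164 CPM of the 6 groups. Whether these cells express Cd69 themselves, and whether free RNA had a part in the shares of the groups, was not tested.

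Thinned noncycling DP cells with 3 or more Cd5 UMIs were 2.25% (45 cells) in WT and 3.62% (89 cells) in I173A. Cells with 3 or more Themis UMIs were 17.3% (346 cells) and 13.8% (340 cells). Without thinning, the 10% of cells with the most Cd5 UMIs held 77.6% of them in WT, where 23.4% of cells had one. For Ubash3a, which 18.9% of these cells carried, that 10% held 58.6%. Such a share depends on the level of a gene, and the counting intervals take UMIs as independent.

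Members were then read together in the same thinned noncycling cells. In the DP gate Cd5 was found in 29.5% (21.0 to 39.2%) of the 105 WT cells with a Cd69 UMI and 12.3% (10.9 to 13.9%) of the 1893 without one. In I173A it was found in 54.2% (44.8 to 63.3%) of the 120 I173A cells with a Cd69 UMI and 13.9% (12.5 to 15.4%) of the 2339 without one. Cd5 was also more often found beside Cd6, in 29.0% (24.5 to 33.8%) of the 383 WT cells with a Cd6 UMI and 9.47% (8.09 to 11.0%) of the 1615 without one. Beside Themis it was found in 11.8% (10.1 to 13.7%) of the 1319 WT cells with a Themis UMI and 15.9% (13.2 to 18.9%) of the 679 without one. I173A DP cells gave 12.8% (11.2 to 14.6%) of the 1540 I173A cells with a Themis UMI and 21.0% (18.4 to 23.8%) of the 919 without one. Thus Cd5 was found more often beside Cd69 and beside Cd6. Its share was lower with Themis than without it in both genotypes, with overlapping intervals in WT and separate ones in I173A. Whether the genotypes differed in this was not tested.

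In the CD4 gate Cd5 was found in 55.4% (51.5 to 59.3%) of the 655 WT cells with a Cd6 UMI and 30.6% (28.7 to 32.5%) of the 2350 without one. S1pr1, the receptor that CD69 pulls from the cell surface, was compared with Cd69 in the same way. In the CD4 gate Cd69 was found in 9.05% (6.57 to 12.1%) of the 453 WT cells with a S1pr1 UMI and 13.0% (11.8 to 14.4%) of the 2552 without one. For I173A the values were 4.65% (2.68 to 7.44%) of the 344 I173A cells with a S1pr1 UMI and 12.8% (11.5 to 14.3%) of the 2254 without one. In the CD8 gate the shares with and without S1pr1 were 14.2% and 14.3% in WT and 9.40% and 10.6% in I173A. In the CD4 gate the share was lower with S1pr1 in both genotypes. The intervals overlapped in WT of both gates and in I173A of the CD8 gate, and were separate in I173A of the CD4 gate alone. Whether the genotypes differed in this was not tested. S1pr1 itself was at 329.9 and 298 CPM in high-scored cells of the CD4 gate and 191 and 179.5 CPM in those of the CD8 gate, a score that includes it.

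Other genes of the pathway were read from lists. A list of 20 held genes for TCR subunits, for the first signalling steps after them and for other receptors such as Cd28 and Cd2. None of the 20 passed the fold in the CD4 gate, where 12 of 20 had a ratio above 1. In that gate the highest were Cd28, the costimulatory receptor (401 and 475 CPM, ratio 1.19), Cd3d (1257 and 1414 CPM, ratio 1.13) and the kinase gene Zap70 (198 and 217 CPM, ratio 1.097). Lowest were the kinase gene Lck (1068 and 939 CPM, ratio 0.879), Cd247 (663 and 622 CPM, ratio 0.939) and Grap2 (170.0 and 163 CPM, ratio 0.957). The CD8 gate had 4 of the 20 past it, all higher, where 10.6% of all genes were, among them Plcg1 (61.7 and 81.1 CPM, ratio 1.31), Prkcq (139.5 and 182 CPM, ratio 1.31) and Fyn (165 and 212 CPM, ratio 1.28). At the other end of the 20 were Grb2 (131 and 123 CPM, ratio 0.941), Lck (824 and 787 CPM, ratio 0.955) and Cd28 (101 and 104 CPM, ratio 1.02).

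In the DP gate 9 of the 20 passed, all higher, against 16.2% of all genes, led by Cd28 (303 and 420.2 CPM, ratio 1.39), Cd2 (133 and 183 CPM, ratio 1.38) and Tespa1 (267 and 365 CPM, ratio 1.37), while Grb2 (192 and 193 CPM, ratio 1.00), Lck (1748 and 1782 CPM, ratio 1.02) and Lat (1557 and 1590.1 CPM, ratio 1.02) were nearest 1. Among noncycling cells none of the 20 passed in any gate, with ratios from 0.861 to 1.19, where 5.31%, 4.33% and 7.25% of all genes were higher in the CD4, CD8 and DP gates. Cd28 in DP was then at 1.16, and Plcg1 in CD8 at 1.11. Their median log2 ratio over all cells was 0.01 in CD4, 0.25 in CD8 and 0.30 in DP, beside 0.04, 0.03 and 0.08 for all genes tested. In noncycling cells it was 0.01, 0.02 and 0.04, and for the 6 members 0.04, -0.0037 and -0.08, beside 0.04, 0.03 and 0.02 for all genes. Of the 6 members, Cd5 passed in noncycling DP cells, where 7.25% of all genes were higher. Cd69 passed in noncycling CD8 cells, where 2.22% were lower. Of the regulators listed next, 1 was higher and 1 lower in the same CD8 cells, and 1 was higher in the same DP cells.

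Among 26 other negative regulators of T cell signals, 25 were measured in the CD4 gate and 2 passed, both higher, against 5% of all genes. These were the phosphatase genes Dusp5 (69.9 and 91.1 CPM, ratio 1.30) and Dusp2 (239.8 and 309 CPM, ratio 1.29). Sla2 came next (69.7 and 80.8 CPM, ratio 1.16), and Dok1 (15.6 and 14.2 CPM, ratio 0.911), Rasal3 (349 and 319 CPM, ratio 0.913) and Csk (375 and 361 CPM, ratio 0.962) were lowest. For the CD8 gate 6 of 25 passed, all higher, against 10.6% of all genes, led by Ubash3b (16.9 and 26.1 CPM, ratio 1.55), Ptpn22 (69.1 and 98.4 CPM, ratio 1.42) and Lax1 (40.7 and 55.2 CPM, ratio 1.36), with Sla (95.1 and 81.5 CPM, ratio 0.858), Ptpn7 (76.5 and 66.7 CPM, ratio 0.873) and Cbl (112 and 103 CPM, ratio 0.912) lowest. The DP gate had 9 of 24, all higher, against 16.2%, led by Dusp6 (12.9 and 18.8 CPM, ratio 1.45), Ptpn12 (11.4 and 15.9 CPM, ratio 1.40) and Dusp5 (40.7 and 56.1 CPM, ratio 1.38), with Ptpn2 (54.2 and 52.0 CPM, ratio 0.958), Pag1 (210.0 and 207 CPM, ratio 0.988) and Rasa2 (73.7 and 73.0 CPM, ratio 0.990) lowest. Without cycling cells 2 passed in the CD4 gate, Dusp2 (243 and 311 CPM, ratio 1.28) and Dusp5 (74.0 and 94.7 CPM, ratio 1.28). The CD8 gate then had 1 higher, Ubash3b (20.6 and 26.5 CPM, ratio 1.28), and 1 lower, Dusp6 (26.9 and 20.1 CPM, ratio 0.745), and the DP gate 1 higher, Ptpn12 (13.8 and 17.9 CPM, ratio 1.30). These were named after their values were seen, and in noncycling cells the shares of all genes past the fold were 5.31% higher in CD4, 4.33% higher and 2.22% lower in CD8 and 7.25% higher in DP.

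Relatives and a ligand of the members were mostly low. Alcam, the ligand of CD6, was below 1 CPM in every group, and Themis2 had 0 to 3 UMIs in any group. Ubash3b (STS-1), the paralogue of Ubash3a, was at 25.8 and 27.6 CPM, ratio 1.07 in the CD4 gate and at 2.08 and 1.73 CPM in the DP gate. Cd72, for which binding to CD5 has been proposed, was at 31.8 and 40.5 CPM, ratio 1.28 over all cells of the CD8 gate, and its ratio was 1.00 in noncycling cells. Ptpn11 (SHP-2), the paralogue of Ptpn6, was at 42.7 and 47.4 CPM, ratio 1.11 in the CD4 gate, 43.5 and 42.5 CPM, ratio 0.976 in the CD8 gate and 59.8 and 62.1 CPM, ratio 1.04 in the DP gate. Its noncycling ratios were 1.12, 0.971 and 1.14.

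For each member the genes nearest in pattern over the 6 groups of gate and genotype were found by the Euclidean distance of centred log2(CPM + 1), among 7584 genes of at least 20 CPM in 1 group. They were Sh3bp2, Gimap8 and Tspan32 for Cd5 (distances 0.244, 0.402 and 0.414) and Hdac5, Slc37a3 and Slc35a1 for Cd6 (0.122, 0.127 and 0.161). Cd69 had Nfkb2, Rcbtb1 and Scml4 (0.124, 0.219 and 0.249), and Themis had Rragd, Mprip and Cers6 (0.219, 0.283 and 0.317). Ptpn6 had Actr3, Myh9 and Noc3l (0.111, 0.120 and 0.142), and Ubash3a had Alkbh6, Tm2d3 and Arhgef1 (0.130, 0.152 and 0.159). The 6 points share 3 libraries, so these are descriptions of 6 values each.

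In the CD4 gate 45 WT and 37 I173A cells carried a TRAV11-TRAJ18 contig, the α chain of invariant natural killer T cells. They had less Cd5 (272 and 229 CPM) than the gate as a whole and more Ptpn6 (409 and 326 CPM). Cd69 was lower too in these 2 groups, at 53.4 CPM (33.8 to 80.1) and 24.2 CPM (12.1 to 43.3), from 23 and 11 UMIs. Themis was at 44.1 and 11.0 CPM from 19 and 5 UMIs.

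Markers of other cells were low but not equal between groups. The 10 myeloid and dendritic markers summed to 26.9 CPM in WT and 187 CPM in I173A cells of the CD8 gate, 54.3 and 53.6 CPM in the CD4 gate and 21.5 and 49.7 CPM in the DP gate, with Itgax at 0 in 3 of the 6 groups. The 6 B cell markers summed to 3.21 to 61.1 CPM, and Pax5 was at 0 in all groups. When cells with at least 5 UMIs of these lists were left out (10 to 54 per group), an alternative chosen after the data were seen, the CD8 ratio of Ptpn6 was 1.09, that of Cd6 1.40 and the DP ratio of Cd5 1.601.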

How the data were processed

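Single-cell RNA, hashtag and TCR libraries of 3 sorted thymocyte gates (9 deposited samples) were made with a 10x 5′ kit, per the labels' protocols. The submitters' processing notes name Cell Ranger 6.0.1 and the build GRCm38 (mm10), and the matrix headers name software version 3.1.0, per the file headers. The deposited values are raw UMI counts per gene and cell; no source names further steps of the authors. Hashtag and TCR tables hold deposited counts of the same cells.

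A cell was called for a hashtag with at least 10 counts and 4 times each other hashtag, and kept if it had 500 or more genes and no more than 10% of its UMIs from mitochondria. Barcodes with several hashtags, 4.20% (CD4), 5.43% (CD8) and 5.72% (DP), were left out as doublets, and doublets within a hashtag remain. Hashtags 4 and 6 were assigned to WT and I173A from their order in the labels. Counts were summed per gate and genotype and divided by all gene UMIs (CPM). CPM have exact Poisson intervals, ratios exact conditional ones and shares Clopper-Pearson ones, all at 95%. No test was possible with 1 sample per genotype and gate. Folds of 1.25 between genotypes and 2 between gates were used to describe genes with at least 5 CPM on average and 100 UMIs. The ratio and interval code was tested on simulated Poisson sums. These had no spread between cells, so the test checked the code and not whether the intervals suit these data. TMM factors came from edgeR 4.0.16 in R 4.3.3, and the rest was run in Python 3.11.15 with NumPy 2.4.6, SciPy 1.17.1 and pandas 2.3.3.

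The members and gene lists were chosen with earlier results of these data known. The list of stress genes and 2 alternatives were added after the data were seen. Genes named were the 6 members in all groups, the 3 highest and 3 lowest ratios of each pathway list per gate (some list members are not reported here), the 3 genes nearest each member in pattern (at least 20 CPM in 1 group, log2 of CPM + 1), S1pr1, gate markers and relatives of the members. Promoter sequences are from RefSeq (GRCm38.p6). Alternatives changed the hashtag rule, cycling threshold, scaling, fold, cell weighting, thinning depth and shared barcodes.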

Additional observations from a re-analysis of the deposited data

Results flagged for a closer look

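Ptpn6, which encodes the phosphatase SHP-1, lay on opposite sides of 1 in the single-positive gates, with an I173A to WT ratio of 1.09 in the CD8 gate and 0.957 in the CD4 gate over all cells. With 1 sample per genotype and gate this difference was not tested. Among noncycling cells the CD8 ratio was 0.984 and the CD4 ratio 0.943.

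Another hashtag, number 5, marked cells in all 3 libraries, and the labels give it no genotype. These cells entered no comparison. Over all cells their Cd5 level was 594 CPM in the CD4 gate, 184 CPM in the CD8 gate and 250.0 CPM in the DP gate. Cd6 was at 287, 142 and 240.0 CPM in the same order, and Cd69 at 165, 115 and 66.2 CPM. Themis was at 140.0, 135 and 1040 CPM. Ptpn6 was at 233, 226 and 145 CPM, and Ubash3a at 106, 62.7 and 65.5 CPM. In the 35 hashtag 5 cells of the CD4 gate with a TRAV11-TRAJ18 contig, Cd69 was at 129 CPM (93.7 to 174), from 43 UMIs.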

How the results depend on the processing

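No paired analysis was possible because the labels give no replicate numbers and each genotype was 1 sample per gate, which also leaves no replicate to omit. Of 234 genotype ratios of the 6 members under alternatives, 178 moved by less than their counting interval, 52 moved further and 4 that had been past the fold turned direction. Ratios under the fold could also cross 1, as Themis in the DP gate did (0.888 in noncycling cells). The 4 were all Cd69 in the DP gate, which was above 1 over all cells and 0.968 in noncycling cells at cycle thresholds of 30 and 60, 0.934 at 15 and 0.903 as a mean of cell CPM. Of 234 gate ratios 102 moved further than their interval, and all 72 shares moved on thinning. The number of members past the fold was 0 in the CD4 gate and 2 at a fold of 1.1. In the CD8 gate it was 2, and 1 in noncycling cells (thresholds 30, 15 and 60) and in noncycling cells without a Jun or Fos UMI, and 0 at a fold of 1.5. In the DP gate it was 2, and 1 with the stricter hashtag rule (20 counts and 10 times), in noncycling cells (30, 15 and 60), without barcodes of another library, in noncycling cells without a Jun or Fos UMI, without cells with B cell or myeloid UMIs, as a mean of cell CPM, with TMM or median ratio scaling and at a fold of 1.5. The cause was not tested. Shallow DP cells limit the rarer genes, as with 25 and 45 Cd69 UMIs in DP cells with 1 signal UMI.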
